A study of Mus musculus with 4 samples.

Results

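Toll-like receptors are membrane receptors of the innate immune system that recognise molecules of microbes and of damaged cells. Those on the cell surface sense lipids, lipoproteins and proteins, whereas those in endosomes sense nucleic acids. Most of them recruit the adaptor Myd88, which passes the signal to IRAK kinases and on to NF-κB and the genes of inflammation. They are best known from macrophages and other myeloid cells, and several are also made by cardiac, endothelial and stromal cells. The genes described here are 8 receptors (*Tlr1*, *Tlr2*, *Tlr3*, *Tlr4*, *Tlr5*, *Tlr6*, *Tlr7* and *Tlr9*), the adaptor *Myd88* and *Ly86*. *Ly86* encodes MD-1, a secreted partner of the Toll-like protein Cd180, and so is an accessory protein and not an adaptor. They were chosen by name from a table of 24637 genes, and all 10 were found in it.

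Messenger RNA was sequenced from mouse embryonic stem cell (ESC) cultures driven towards the cardiac lineage, with 2 libraries labelled WT (genotype Taf4+/+) and 2 labelled *Taf4a*-/-. *Taf4a* encodes a subunit of the general transcription factor TFIID, and its loss was the variable of the study. ESCs of both genotypes had been kept on inactivated mouse embryonic fibroblast feeders with LIF, grown for 5 days as embryoid bodies and then for 9 days on gelatin-coated plates. The study derived 2 WT and 2 homozygous null lines from blastocysts, so each genotype rests on 2 lines, and the cultures are mixtures of cell types and not purified cardiomyocytes.

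Libraries held 21732746 to 27733034 reads in genes. The targeted gene did not fall. *Taf4a* had 889 and 678 normalized counts in WT, and 1722 and 1799 where the label was *Taf4a*-/- (log2 difference 1.18 ± 0.16 (SE), adjusted p = 0.00569, limma). The null allele lacks a pair of exons, and counts over the whole gene do not show whether these were read, so the genotypes are taken from the labels throughout. Cardiomyocyte markers were present in WT, with summed normalized counts of 20230 and 22226 over 8 genes, and sums of 1567 and 1743 in the mutant libraries, where all 8 were lower. Pluripotent cell markers went the other way, with 7 of 8 genes higher and a median log2 difference of 2.76. Their summed normalized counts were 4794 and 1664 in WT, which differed from each other, and 14740 and 17182 in the mutant libraries.

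Of the 10 genes 7 fell (adjusted p under 0.05, limma fitted over 16926 genes) where the label was *Taf4a*-/-, none rose, and 3 did not pass the test. *Tlr7*, *Tlr9*, *Ly86* and *Tlr1* were at or near 0 in those libraries, *Tlr4* was at 6.07% of its WT mean, and *Tlr2* and *Tlr5* kept 21.5% and 28.5%. *Myd88*, *Tlr3* and *Tlr6* had 78.5%, 65.5% and 76.4% of their WT means and were not called. Over all genes tested, 17.3% were lower and 11.3% were higher. For 9 of the 10 genes both values of the libraries labelled *Taf4a*-/- lay below both WT values, against 36.6% of all genes tested. The median log2 difference of the 10 genes was -3.09, against -0.01 over all genes tested. It lies between the values of *Tlr4* and *Tlr2*, so setting *Tlr9* and *Ly86*, which had no read in the libraries labelled *Taf4a*-/-, at the bound given by 3 reads per library gives the same median. *Tlr1*, *Tlr7*, *Tlr9* and *Ly86* had means under 10 in those libraries and passed the filter of a mean of at least 10 only through WT, so that these counts and the median are a description of the 10 genes. RNA came from whole cultures, in which fewer cells of a type and less RNA per cell cannot be told apart.

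**Figure D1:**
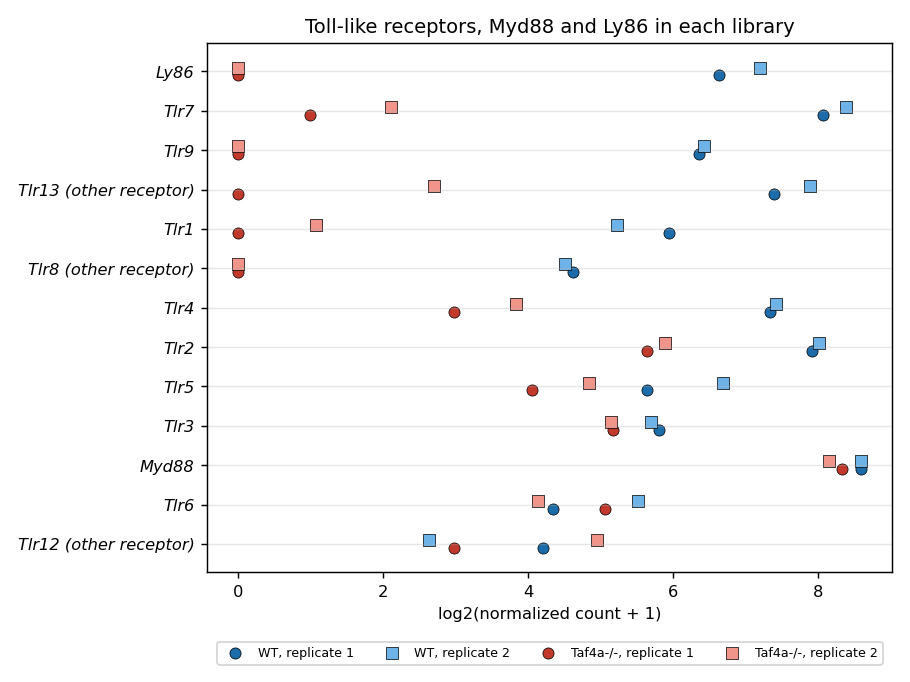
Level of each gene, and of the other receptors Tlr8, Tlr12 and Tlr13, in each of the 4 libraries. The horizontal axis is log2(normalized count + 1). Blue points are WT and red points the libraries labelled Taf4a-/- (circles for replicate 1, squares for replicate 2). Ly86 and Tlr9 sit at 0 in both red libraries, and the red points of Tlr7 and Tlr1 lie far to the left of the blue. The points of Tlr6 overlap between genotypes and those of Myd88 lie close together.

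*Tlr7* and *Tlr9*, which sense nucleic acids in endosomes, were both lower. *Tlr7*, a sensor of single-stranded RNA (X:163742861-163768490, NCBIM37, minus strand, 6 exons), had 267 and 335 normalized counts in WT and 0.979 and 3.32 in those labelled *Taf4a*-/-. In reads these were 305 and 322 against 1 and 3. The genotypes were far apart, and the ratio of WT to the other libraries was 144, with a 95% exact interval of 55.8 to 528 that covers counting error only. The log2 difference was -6.68 ± 0.49 (SE, adjusted p = 0.00123, limma).

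*Tlr9*, the receptor of unmethylated CpG DNA (9:106124929-106129207, NCBIM37, plus strand, 2 exons), had 81.5 and 85.2 normalized counts in WT. No read was counted in either library labelled *Taf4a*-/-. Its level there was at least 26.7-fold lower, taking 3 reads per library as the limit that a count of 0 allows, and the fitted log2 difference was -6.40 ± 0.50 (SE, adjusted p = 0.00132, limma). *Tlr3*, which binds double-stranded RNA and signals through Ticam1 and not Myd88 (8:46481019-46495962, NCBIM37, minus strand, 7 exons), had 55.2 and 50.9 normalized counts in WT and 35.2 and 34.3 in the libraries labelled *Taf4a*-/-. Both of these lay below both WT values. The log2 difference of -0.60 ± 0.32 (SE) did not pass the test (adjusted p = 0.207, limma), and its 95% interval ran from -1.37 to 0.18.

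Among these endosomal receptors *Tlr9* had no read in the libraries labelled *Taf4a*-/-, and *Tlr3* did not pass the test. The promoter of *Tlr9* is shown beside those of *Ly86*, *Tlr2* and *Myd88*, which cover the range from no read to no call. Sequences are from RefSeq on GRCm38.p6, a later build than the one used for the counts, and hold 250 bases before and 50 from the annotated start, 5′ to 3′ on the gene's strand. Capitals mark letters that match any of 5 motifs on either strand: GAGGAA (the PU-box bound by Spi1), the interferon-stimulated response element (ISRE), TGANTCA (AP-1), TATAAA, and the κB consensus. The *Tlr9* promoter lies at chr9:106222348-106222647 on the plus strand, that of *Ly86* at chr13:37345095-37345394 on the plus strand, that of *Tlr2* at chr3:83841559-83841858 on the minus strand, and that of *Myd88* at chr9:119339969-119340268 on the minus strand.
Tlr9: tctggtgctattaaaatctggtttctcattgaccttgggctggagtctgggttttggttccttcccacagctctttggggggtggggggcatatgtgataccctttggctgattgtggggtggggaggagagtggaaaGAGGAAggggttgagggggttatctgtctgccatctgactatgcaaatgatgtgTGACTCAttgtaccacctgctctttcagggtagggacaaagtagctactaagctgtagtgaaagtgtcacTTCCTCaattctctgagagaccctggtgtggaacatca
Ly86: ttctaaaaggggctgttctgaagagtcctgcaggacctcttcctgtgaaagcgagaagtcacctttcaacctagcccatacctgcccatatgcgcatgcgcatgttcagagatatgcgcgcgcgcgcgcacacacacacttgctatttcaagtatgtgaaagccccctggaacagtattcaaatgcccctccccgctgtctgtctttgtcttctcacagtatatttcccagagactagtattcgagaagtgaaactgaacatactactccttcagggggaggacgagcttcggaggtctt
Tlr2: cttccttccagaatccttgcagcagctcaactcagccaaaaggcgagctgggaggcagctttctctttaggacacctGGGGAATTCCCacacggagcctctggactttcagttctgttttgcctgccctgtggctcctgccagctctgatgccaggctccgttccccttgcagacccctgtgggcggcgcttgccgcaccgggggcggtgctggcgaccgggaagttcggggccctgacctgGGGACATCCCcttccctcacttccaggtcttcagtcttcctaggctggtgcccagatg
Myd88: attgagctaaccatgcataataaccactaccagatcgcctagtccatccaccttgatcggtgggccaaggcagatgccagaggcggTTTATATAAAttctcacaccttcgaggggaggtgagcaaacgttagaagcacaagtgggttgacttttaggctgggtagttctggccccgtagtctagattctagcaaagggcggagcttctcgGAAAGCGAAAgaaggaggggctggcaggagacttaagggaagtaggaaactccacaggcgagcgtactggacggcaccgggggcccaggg
Counted from the start site as 0, the *Tlr9* promoter held GAGGAA at -112 and, on the opposite strand, at 12, with TGACTCA at -58. The *Tlr2* promoter held κB matches from -173 and -172, which overlap, and from -8. The *Myd88* promoter held the ISRE match GAAAGCGAAA at -40 and TATAAA from -164 on the opposite strand and from -160, which overlap. The *Ly86* promoter held none of the 5 motifs. Entries were found for 8 of the 10 genes, with 10 promoters, and *Tlr4* and *Tlr7* were not among them. Of the 10 promoters 2 held GAGGAA, against 28.3% of 32851 promoters of the same length, 2 held an ISRE, against 3.44%, and 2 held a κB match, against 8.46%. TATAAA was in 2, against 13.6%, and TGANTCA in 1, against 7.81%. A match is a run of letters and was not tested as a binding site.

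Of the surface receptors, *Tlr4* and *Tlr5* were both lower. *Tlr4*, which senses lipopolysaccharide (4:66488618-66591318, NCBIM37, plus strand, 6 exons), had 161 and 170 normalized counts in WT and 6.85 and 13.3 in the libraries labelled *Taf4a*-/-. The genotypes did not overlap. WT was 16.8-fold higher (95% exact interval 10.6 to 28.2, counting error only), and the log2 difference was -3.98 ± 0.41 (SE, adjusted p = 0.00268, limma). *Tlr5*, the flagellin receptor (1:184884919-184906175, NCBIM37, plus strand, 5 exons), had 49.1 and 103 normalized counts in WT and 15.7 and 27.6 in the other libraries. The WT libraries differed more from each other here than for *Tlr4*. The log2 difference of -1.72 ± 0.50 (SE) passed the test narrowly (adjusted p = 0.0468, limma). It was not called without WT replicate 2 (log2 difference -1.20) or without *Taf4a*-/- replicate 1 (-1.33), nor with voom, quantile normalization, no variance trend or no filter on low genes, and its adjusted p ranged from 0.0269 to 0.189 over the limma alternatives.

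*Tlr2* recognises lipoproteins as a heterodimer with Tlr1 or Tlr6, and the values of these partners are given beside it. *Tlr2* (3:83640195-83645689, NCBIM37, minus strand, 3 exons) had 242 and 259 normalized counts in WT and 48.9 and 58.6 in the libraries labelled *Taf4a*-/-. Values within each genotype were close. The log2 difference was -2.20 ± 0.25 (SE, adjusted p = 0.00336, limma), a 4.67-fold ratio with a 95% exact interval of 3.77 to 5.82. *Tlr1* (5:65316050-65324000, NCBIM37, minus strand, 3 exons) had 60.5 and 36.4 normalized counts in WT and 0 and 1.11 in the libraries labelled *Taf4a*-/-, the latter being 1 read. The ratio of WT to these libraries was 95.2, with a wide 95% exact interval of 16.7 to 3797, and the log2 difference was -5.05 ± 0.63 (SE, adjusted p = 0.00426, limma). *Tlr6* (5:65344345-65351287, NCBIM37, minus strand, 2 exons) had 19.3 and 44.7 normalized counts in WT and 32.3 and 16.6 in the libraries labelled *Taf4a*-/-, so that the genotypes overlapped. Its log2 difference of -0.33 ± 0.56 (SE) did not pass the test (adjusted p = 0.684, limma), with a 95% interval of -1.69 to 1.03. The sign turned to 0.25 without WT replicate 2 and to 0.13 without *Taf4a*-/- replicate 2.

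*Tlr1* and *Tlr6* are neighbours on chromosome 5 that share stretches of sequence, and their split of reads is uncertain. Of the 50-base windows of the *Tlr1* transcript, 454 of 2603 (17.4%) occurred in *Tlr6*, which is 17.8% of the 2554 windows of *Tlr6*, and no window of the other 8 genes occurred in another member. The longest identical run is shown because reads inside it cannot be given to either gene. It was 229 bases long and covered transcript bases 1698 to 1926 of *Tlr1* and 1653 to 1881 of *Tlr6*.
Tlr1 and Tlr6: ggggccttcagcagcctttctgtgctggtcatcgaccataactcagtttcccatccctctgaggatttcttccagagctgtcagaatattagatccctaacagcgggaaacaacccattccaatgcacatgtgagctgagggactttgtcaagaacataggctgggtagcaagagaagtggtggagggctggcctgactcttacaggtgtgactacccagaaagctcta
How the authors' counting treated such reads is not given in the sources used here. Against 0 and 1 read for *Tlr1*, the libraries labelled *Taf4a*-/- held 33 and 15 reads for *Tlr6*.

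*Ly86* (13:37437214-37510905, NCBIM37, plus strand, 5 exons) had 98.2 and 147 normalized counts in WT and no read in either library labelled *Taf4a*-/-. It was at least 39.1-fold lower, with a fitted log2 difference of -6.92 ± 0.50 (SE, adjusted p = 0.00123, limma). With no read in those libraries this size depends on the pseudocount, and it was -3.70 with a pseudocount of 10, where *Tlr7* had -4.68. Its partner *Cd180* had 207 and 278 normalized counts in WT and 1.96 and 4.42 in the other libraries (log2 difference -5.91 ± 0.45 (SE), adjusted p = 0.00125, limma).

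*Myd88* (9:119245052-119250529, NCBIM37, minus strand, 5 exons) had 385 and 388 normalized counts in WT and 323 and 283 in the libraries labelled *Taf4a*-/-. Both of the latter were below WT, by less than in any called member. The log2 difference was -0.35 ± 0.17 (SE), with a 95% interval of -0.77 to 0.06, and did not pass the test (adjusted p = 0.170, limma). *Myd88* shares 67 exonic bases, 2.60% of its exons, with *Acaa1a* on the opposite strand, and the other members share none with another gene. The library kit does not mark strand, so reads in these bases cannot be told apart. *Acaa1a* had a log2 difference of -0.42, which was not called (adjusted p = 0.0618, limma).

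**Figure D2:**
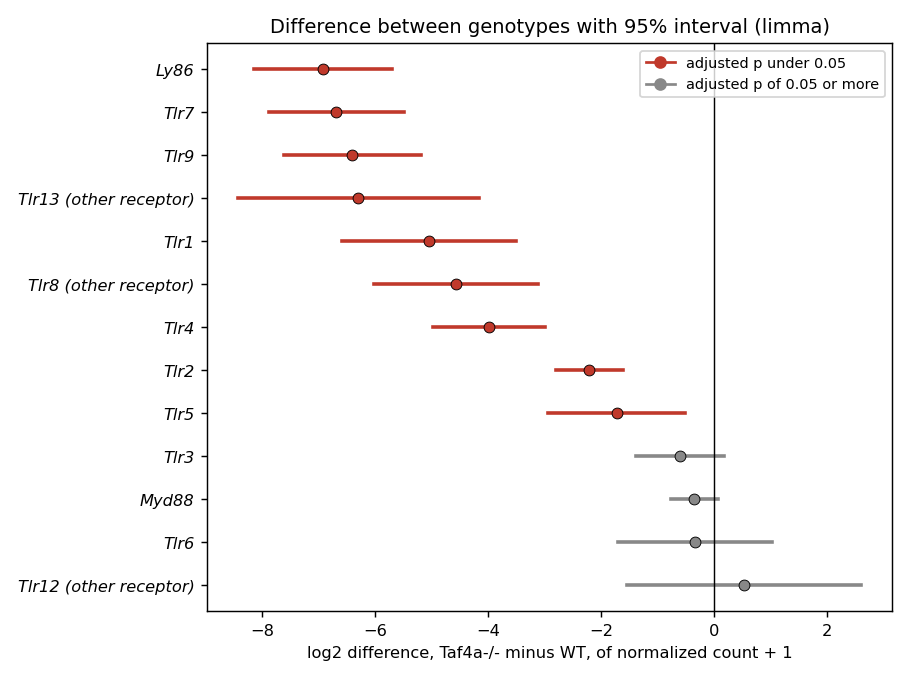
Log2 difference between genotypes (Taf4a-/- minus WT, of normalized count + 1) for the 10 genes and the other receptors Tlr8, Tlr12 and Tlr13, with the 95% interval of the limma fit as a horizontal line and red for an adjusted p under 0.05. The differences run from -6.92 for Ly86 to -0.33 for Tlr6 among the 10 genes, and the intervals of Tlr3, Myd88 and Tlr6 include 0.

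Other receptors in the table were *Tlr8*, *Tlr12* and *Tlr13*. *Tlr13*, a sensor of bacterial ribosomal RNA, had 167 and 237 normalized counts in WT and 0 and 5.53 in the libraries labelled *Taf4a*-/- (log2 difference -6.29 ± 0.87 (SE), adjusted p = 0.00585, limma). Without WT replicate 2 it was not called (adjusted p = 0.0660, limma). *Tlr8*, a relative of *Tlr7*, had 23.7 and 21.8 normalized counts in WT and no read in the other libraries, which is at least 7.27-fold lower (adjusted p = 0.00494, limma). *Tlr12*, a profilin sensor, had 17.5 and 5.20 in WT and 6.85 and 29.9 in the other libraries, which overlapped, and was not called (adjusted p = 0.661, limma). *Tlr11* was not analysed here.

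*Tlr7*, *Tlr8* and *Tlr13* lie on the X chromosome, and the libraries differed in sex-linked RNA. *Xist*, the RNA of the inactive X, had 6.14 and 7.27 normalized counts in WT and 217 and 6470.0 in the libraries labelled *Taf4a*-/-. The Y-linked *Ddx3y* had 725 and 0 in WT and 164 and 0 in the others, so that Y-linked RNA differed within each genotype. *Xist* was higher, and the 3 X-linked receptors lower, in both libraries labelled *Taf4a*-/-. A part of the X chromosome's state in these receptors therefore cannot be told apart from genotype. Of 746 X-linked genes tested, 106 (14.2%) were lower and 82 higher, with a median log2 difference of -0.01. The part of these differences in the 3 receptors was not tested.

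Levels divided by exon length can be set side by side between genes. In WT the order, in mean normalized counts per kb of exon, was *Myd88* (149.9), *Ly86* (123), *Tlr2* (83.1), *Tlr7* (73.7), *Tlr4* (29.9), *Tlr9* (24.0), *Tlr5* (21.6), *Tlr1* (18.3), *Tlr6* (12.3) and *Tlr3* (12.1). The ranges of the 2 libraries overlapped between *Tlr2* and *Tlr7* and between all neighbours from *Tlr9* down to *Tlr3*, so those places in the order are not set by these data. In the libraries labelled *Taf4a*-/- *Myd88* was again first (117.7), followed by *Tlr2* (17.8), *Tlr6* (9.39), *Tlr3* (7.91), *Tlr5* (6.14), *Tlr4* (1.81), *Tlr7* (0.526) and *Tlr1* (0.209), with *Tlr9* and *Ly86* at 0. Neighbours whose ranges overlapped there were *Tlr6* with *Tlr3*, *Tlr3* with *Tlr5*, *Tlr7* with *Tlr1*, *Tlr1* with *Tlr9*, and *Tlr9* with *Ly86*.

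Summed over the 11 receptor genes in the table, the level was 308 and 360 normalized counts per kb in WT and 44.7 and 55.9 in the libraries labelled *Taf4a*-/-. *Tlr2*, *Tlr3* and *Tlr6* together made up 32.5% and 31.8% of this sum in WT and 82.0% and 60.2% in the other libraries. *Tlr3* and *Tlr6* are the member receptors that were not called, so a larger share of a smaller sum follows from this choice. *Tlr12* went from 1.79% and 0.45% in WT to 4.82% and 16.8%. In *Taf4a*-/- replicate 2, *Tlr12* and *Tlr5* (14.04%) had larger shares than *Tlr3* (13.96%) and *Tlr6* (11.4%). The share of *Tlr7* was 21.3% and 22.7% in WT and 0.54% and 1.46% in the others, whereas the share of *Tlr2* was 26.1% and 23.8% in WT and 36.3% and 34.8%. No receptor of the 11 was at 0 in WT, while 4 and 2 were in the others. For each unit of summed receptor level per kb there were 0.485 and 0.417 units of *Myd88* per kb in WT and 2.80 and 1.97 in the libraries labelled *Taf4a*-/-. With 2 libraries per genotype a two-sided exact permutation test cannot go below p = 0.333, and these shares are given as values.

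**Figure D3:**
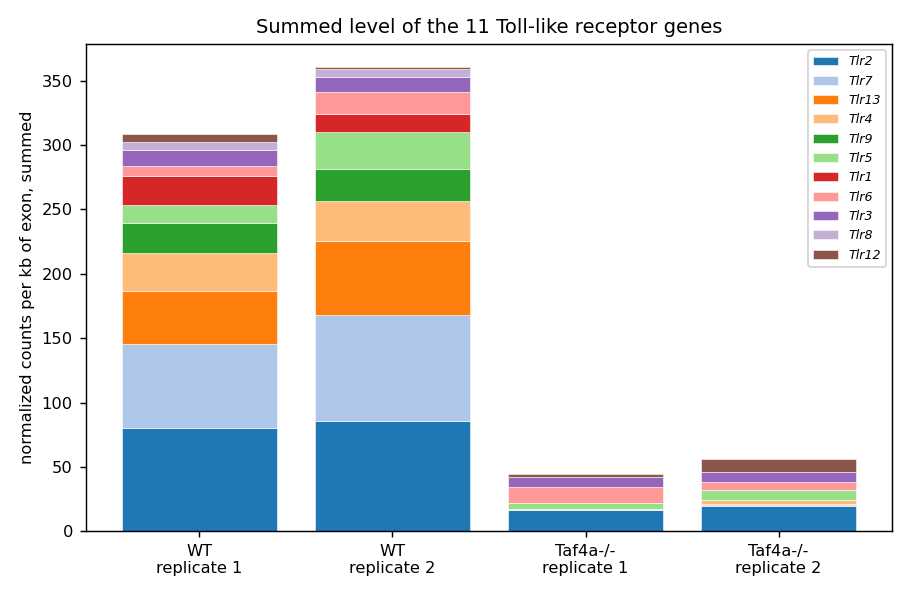
Summed level of the 11 receptor genes in each library, in normalized counts per kb of exon, with each gene as a coloured segment of the bar. The bars reach 308 and 360 in WT and 44.7 and 55.9 in the libraries labelled Taf4a-/-, where Tlr2 is the largest segment.

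By the root mean square distance of log2 values over the 4 libraries, the genes with profiles most like the members' median profile were *Fmnl1* (0.039), *Rassf4* (0.042), *5031414D18Rik* (0.076), *Abra* (0.076) and *Inhba* (0.077). They had log2 differences between -3.20 and -3.02. With only 4 libraries many genes lie close to such a profile.

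The rest of the pathway is given by role. Of 107 other pathway genes in the table, 94 were tested, and 36 fell, 5 rose and 53 were not called. Without WT replicate 2, 14 were called lower and 3 higher. The number called higher was 8 without WT replicate 1, and 1 when either library labelled *Taf4a*-/- was left out. The median log2 difference of the 94 genes was -0.51. The background over all genes is the 17.3% lower and 11.3% higher given above, and it moves when a library is left out. Over all genes, 7.22% were lower and 4.40% higher without WT replicate 2, and 17.9% and 14.6% without WT replicate 1. They were 11.7% and 3.69% without *Taf4a*-/- replicate 1, and 11.3% and 3.69% without *Taf4a*-/- replicate 2. Counts given below without a library are to be read against these shares. The lists below were drawn up with earlier results of these data known, and none of their counts is independent evidence. Pathway and marker genes with means under 10 in the libraries labelled *Taf4a*-/- passed the filter only through WT. Such genes could hardly be called other than lower, so the counts of lower genes are a description.

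Of 13 co-receptors and chaperones 8 fell and none rose, and the median was -0.75. The count was 4 without WT replicate 2, and 5 when either library labelled *Taf4a*-/- was left out. *Cd14*, which hands lipopolysaccharide to Tlr4, had 196 and 301 normalized counts in WT and 4.89 and 7.74 in the libraries labelled *Taf4a*-/- (log2 difference -5.09, adjusted p = 0.00134, limma). *Unc93b1*, the chaperone that brings the nucleic acid receptors to endosomes, kept 10.5% of its WT mean (log2 difference -3.29, adjusted p = 0.00184, limma), and *Cd36*, a scavenger receptor that works with Tlr2, kept 9.05% (log2 difference -3.45, adjusted p = 0.00102, limma). *Cnpy3*, a chaperone of Toll-like receptors in the endoplasmic reticulum, had a log2 difference of -0.43 (adjusted p = 0.0503, limma) and *Tril* one of 0.99 (adjusted p = 0.0624, limma), and neither passed the test.

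Of 5 other adaptors tested 3 were lower. *Pik3ap1*, which links receptors to PI3-kinase, had 423 and 574 normalized counts in WT and 39.2 and 29.9 in the other libraries (log2 difference -3.81, adjusted p = 0.00123, limma). *Ticam2*, the bridging adaptor of Tlr4, had a log2 difference of -2.78 (adjusted p = 0.0101, limma), and *Ticam1*, the adaptor of Tlr3, one of -0.98 (adjusted p = 0.0138, limma). *Tirap*, which bridges Tlr2 and Tlr4 to Myd88, had a log2 difference of -0.16 and *Sarm1* one of 1.23, and neither passed the test (adjusted p = 0.476 and 0.0521, limma).

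Of the shared signalling machinery downstream, the share of genes not called was near the 71.4% of all genes tested. Of 19 kinases and ubiquitin ligases 3 fell and 2 rose, and the median was 0.14. None was lower without WT replicate 2, 1 was without *Taf4a*-/- replicate 1, and none was higher when either library labelled *Taf4a*-/- was left out. *Ikbke*, *Ripk1* and *Irak2* were lower, with log2 differences of -1.91, -0.91 and -0.87 (adjusted p = 0.00943, 0.0132 and 0.0336, limma). *Ikbkb*, the IκB kinase beta subunit, was higher by 0.67 (adjusted p = 0.0129, limma). *Tab2* and *Map3k7*, partners in the TAK1 complex, were the most abundant of those not called, with log2 differences of -0.01 and 0.24. Of 10 transcription factors 2 were lower, *Irf8* and *Irf5*, with log2 differences of -2.85 and -1.57 (adjusted p = 0.00163 and 0.0108, limma). Both are interferon regulatory factors prominent in myeloid cells, and without WT replicate 2 the list had 1 lower gene. The NF-κB subunits *Nfkb1* and *Rela* had log2 differences of -0.06 and -0.07 and were not called.

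Of 13 negative regulators 1 was lower and 1 higher. *Tnfaip3*, the deubiquitinase A20, fell by 0.86 on the log2 scale (adjusted p = 0.0269, limma), and *Dusp1*, a MAP kinase phosphatase, rose by 0.68 (adjusted p = 0.0196, limma). Neither was called without WT replicate 2 or when either library labelled *Taf4a*-/- was left out. The most abundant of those not called, *Tollip* and *Otud7b*, had log2 differences of -0.06 and 0.29, and the median of the list was -0.02.

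Of 22 inflammatory target genes 12 passed the filter on low genes. Of these 8 fell and none rose, and the median was -1.63. Without WT replicate 2 the count was 2. *Ccl3*, *Il1b*, *Ccl4* and *Cd86* had means under 10 in the libraries labelled *Taf4a*-/- and passed the filter only through WT. The chemokine gene *Ccl3* had 106 and 89.4 normalized counts in WT and no read in the others, which is at least 31.2-fold lower, and *Il1b*, the gene of interleukin-1β, had 58.7 and 64.4 in WT and no read in the others, a fall of at least 19.7-fold. The chemokine gene *Ccl4* and the costimulator gene *Cd86* had log2 differences of -4.74 and -5.82 (adjusted p = 0.0101 and 0.00589, limma). *Ptgs2* (cyclooxygenase-2) and *Nfkbiz* had log2 differences of -0.77 and -0.54 and were not called.

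Signalling receptors of the interleukin-1 receptor family share the cytoplasmic TIR domain and Myd88 with the Toll-like receptors. Of the family's 7 tested genes 5 fell, and the median was -1.77. Leaving out WT replicate 2 reduced this count to 2, and leaving out WT replicate 1 or *Taf4a*-/- replicate 2 to 3. *Il1r1*, its signalling receptor, had 615 and 1299 normalized counts in WT and 154 and 149 in the other libraries (log2 difference -2.55, adjusted p = 0.00548, limma), and *Il18rap* had a log2 difference of -5.05 (adjusted p = 0.00268, limma). *Il1rl1*, the receptor of interleukin-33, and *Il1rl2* had log2 differences of -3.78 and -1.52 (adjusted p = 0.0163 and 0.0457, limma). *Sigirr*, an inhibitory member, and the decoy receptor *Il1r2* had log2 differences of -0.41 and -1.77 and were not called.

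Of 14 other innate sensors tested 4 fell and 2 rose, and the median was -0.66. Without WT replicate 2, 2 were lower, and 1 was higher when any library but WT replicate 1 was left out. *Clec7a* (dectin-1, a receptor of fungal glucans) and *Casp1* (the inflammasome protease) had log2 differences of -6.38 and -5.85 (adjusted p = 0.00356 and 0.00199, limma). *Nlrp3*, an inflammasome sensor, and *Cgas*, a DNA sensor, had log2 differences of -2.18 and -1.74 (adjusted p = 0.0338 and 0.0188, limma), and the RNA sensor *Ddx58* and its adaptor *Mavs*, at -0.38 and -0.29, were not called. The genes that rose were *Nod1*, by 1.58, and *Pycard*, by 1.22 (adjusted p = 0.00749 and 0.0188, limma). *Nod1* and *Pycard*, and *Chuk* among the kinases (0.42, adjusted p = 0.0468, limma), were named after their values were seen, to complete the 5 genes called higher.

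**Figure D4:**
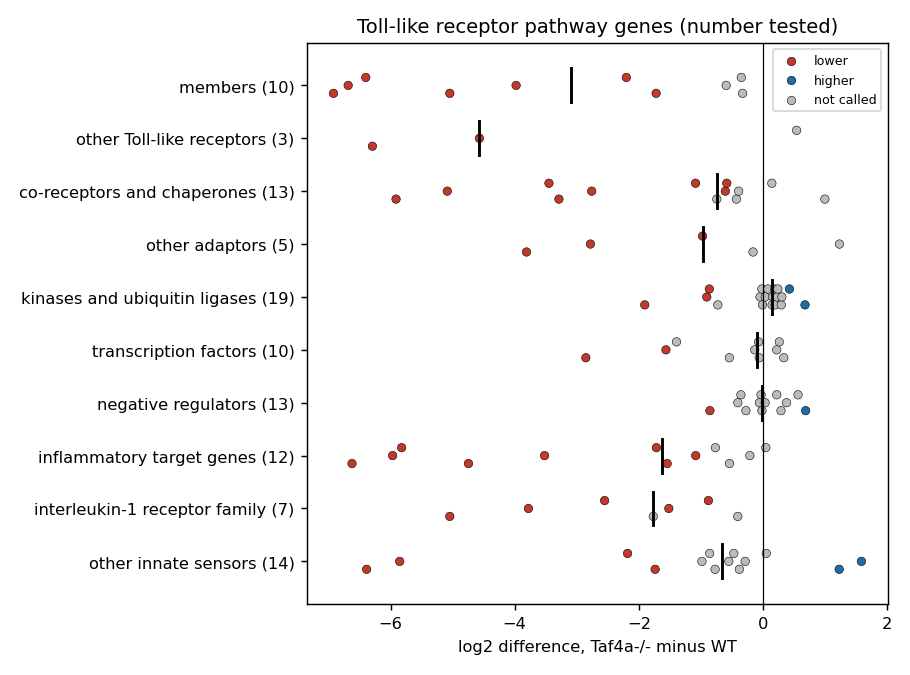
Log2 difference between genotypes (horizontal axis) of each tested gene of the members and of 9 pathway lists, with red for lower, blue for higher and grey for not called, and a black bar for the list's median. Co-receptors, inflammatory targets and interleukin-1 receptors spread to the left, while most kinases, transcription factors and negative regulators lie near 0.

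Markers of some cell types were lower in the libraries labelled *Taf4a*-/-, while those of others were mostly not called. All 18 macrophage markers fell (12 without WT replicate 2), and their median log2 difference was -6.47. Their summed normalized counts were 17525 and 21188 in WT and 510.0 and 733 in the others, 3.21% of the WT mean. *Csf1r*, the receptor of the macrophage growth factor CSF-1, had 2825 and 3159 in WT and 36.2 and 47.6 in the others, and *C1qa* was at 0 in both of the others. In those libraries 11 of the 18 had at most 10 normalized counts in both. These 11 passed the filter only through WT, so the count of 18 is a description. *Tlr4*, at 6.07% of WT, and *Tlr2*, *Tlr5*, *Tlr3*, *Tlr6* and *Myd88*, at 21.5% to 78.5%, stood above the 3.21% of the summed macrophage markers. *Tlr7*, *Tlr1*, *Tlr9* and *Ly86*, at 0 to 1.14%, stood below it, but the sum is weighted to abundant markers. In log2 differences *Ly86* (-6.92) and *Tlr7* (-6.68) lay below the markers' median of -6.47, and *Tlr9* (-6.40) and *Tlr1* (-5.05) lay above it.

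Other lists differed from one another in this. Fibroblast markers were lower in 7 of 8 genes, with a summed level at 10.6% of WT. Visceral endoderm and liver markers were lower in 8 of 8, at 1.58%, and their median log2 difference was -6.26. Endothelial markers were lower in 1 of 8 (none without either WT library or *Taf4a*-/- replicate 1, 2 without *Taf4a*-/- replicate 2) and stood at 83.0% of WT, whereas the 6 erythroid markers were not called (3 were higher without *Taf4a*-/- replicate 1) and ranged from 1232 to 10299 in sum over the libraries. Of 7 neural markers 1 was lower (none without *Taf4a*-/- replicate 1) and none higher. Lists for other blood cells were thinly expressed. Of neutrophil markers 1 was tested and was lower, of B cell markers both that were tested were lower, but neither was once either WT library or *Taf4a*-/- replicate 2 was left out, of dendritic cell markers 1 of 3 was lower, and of T cell and mast cell markers 2 and 1 were tested and none was called (the mast cell marker was lower without WT replicate 1). The part of any of these cell types in the levels of the Toll-like receptor genes was not tested.

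**Figure D5:**
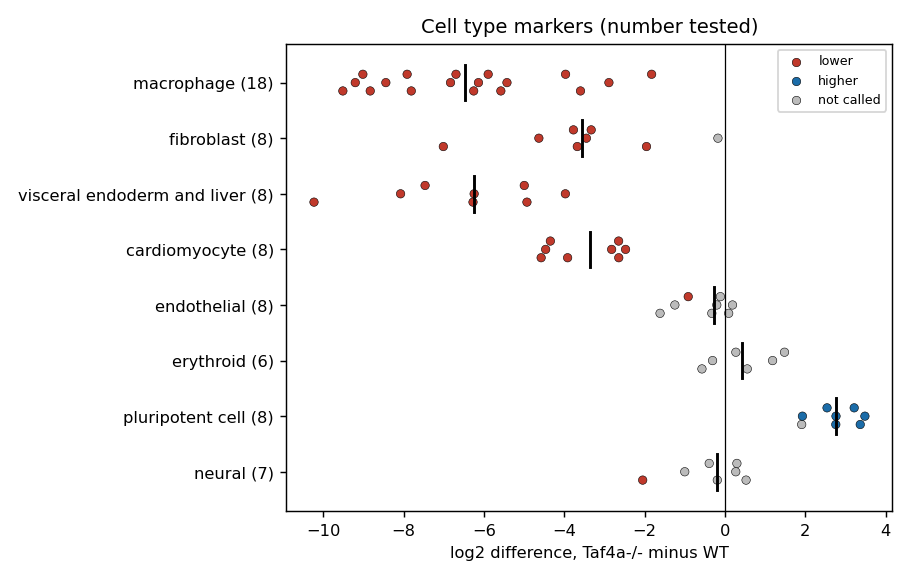
Log2 difference between genotypes (horizontal axis) of each tested marker gene of 8 cell types, coloured by call, with a black bar for the median. Macrophage markers centre on -6.47, visceral endoderm and liver markers on -6.26 and cardiomyocyte markers on -3.37. Endothelial, erythroid and neural markers lie around 0 and pluripotent cell markers lie to the right.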

How the data were processed

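RNA of WT and *Taf4a*-/- cultures was prepared by the study with a poly-A selecting kit that does not mark strand. Per the submitters' processing notes, the authors used CASAVA 1.8, TopHat 1.3.3, HTSeq 0.5.3p1 and DESeq on mm9, and deposited counts per gene divided by 1 size factor per library. The deposited values carry decimal commas. Divided by the value of 1 read, 100% came out whole within 0.01 read, which gave the depth of each library.

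Genes averaging 10 normalized counts or more were tested on log2(value + 1) with limma 3.58.1 in R 4.3.3 (eBayes with a variance trend), fitted over the whole table of 4 libraries, with calls at a Benjamini-Hochberg adjusted p under 0.05. The scale understates changes of low genes. The fit was tested on simulated data. Count-ratio intervals are exact (95%), and bounds use 3 reads per library. Reads were not marked by molecule, so both cover counting error only. P-values rest on the spread between 2 libraries per genotype, drawn towards a variance trend fitted over all genes tested. The labels do not tie the libraries to named lines. Exon lengths and positions are from GENCODE on NCBIM37, where all 24637 identifiers and 99.4% of symbols matched. Promoters are from RefSeq on GRCm38.p6, and their coordinates were not converted. Figures were drawn with matplotlib 3.10.9.

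The members, gene lists and tests were chosen with earlier results of these data known. Named pathway genes were, in each list, up to 4 called genes with the largest differences and the 2 most abundant genes not called. The genes named by profile were the 5 nearest to the members' median profile, which is not the profile of any single member. Of the list genes, 8 were not found in the table, of which 7 are cell type markers. Results were recomputed with changed pseudocount, filter, scaling, threshold and variance model, with voom on the recovered reads, with a replicate block, and without each library in turn.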

Additional observations from a re-analysis of the deposited data

How the results depend on the processing

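Precision is limited by 2 libraries per genotype and, for the genes with few reads, by depth. Of the 10 genes, 7 were lower under 8 of 16 alternatives and 6 under 7, with *Tlr5* the one lost. With a filter at a mean of 50, 4 of the 5 left to test were lower. The median of the 10 genes, -3.09, was -2.24 with a pseudocount of 10, -3.98 with that filter, and between -3.37 and -2.81 when 1 library was left out. Of the pathway genes, 17 were lower at an adjusted p under 0.01, and 14 to 32 when 1 library was left out, the lowest without WT replicate 2. The 5 called higher became 2 without a variance trend, 1 at an adjusted p under 0.01, 2 with a 2-fold change required, and 1 to 8 when 1 library was left out. When 1 library was left out, *Tlr6* ranged from -0.92 to 0.25 and *Tlr12* from -0.45 to 1.53. *Tlr6* turned to 0.25 without WT replicate 2 and 0.13 without *Taf4a*-/- replicate 2, and *Tlr12* to -0.25 and -0.45. The cause was not tested. Deviations of same-numbered libraries correlated at 0.01 over the genes tested, which cannot decide whether the numbers pair them. The Y-linked *Ddx3y* had 725 and 164 normalized counts in the libraries numbered 1 and 0 in those numbered 2. With the replicate block the members' median was -3.09 and 7 were lower. Quantile normalization moved the median of all genes to 0.11 and the calls over all genes from 2928 lower and 1906 higher to 2448 and 2676. Without a variance trend there were 1741 and 856. No called member or pathway gene changed sign under any scaling. The tests of edgeR and DESeq2 on counts were not run.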
